A study of Mus musculus with 12 samples.

Results

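The genes described here are 8 that make up the antibody-binding receptors of the macrophage and the chain that passes on their signal: Fcgr1, Fcgr3, Fcgr4, Fcgr2b, Fcgrt, Fcer1g, Tyrobp and Syk. They were taken by name, as a set of known function and with earlier results of these data in view, from the 47937 genes in the deposited counts, and all 8 were among the 11760 genes that had enough reads to be tested. The libraries were made from bone marrow-derived macrophages of C57BL/6 mice, grown from marrow for 7 days in 20 ng/ml CSF-1, the growth factor of macrophages. There were 4 groups of 3 libraries: resting cells (M0), cells given 50 ng/ml IFNγ and 20 ng/ml LPS for 18 h (IFNγ + LPS), resting cells given the DGAT1 inhibitor T863 at 50 µM (M0 + DGAT1i), and cells given the stimulus and the inhibitor together (IFNγ + LPS + DGAT1i). The labels give 18 h for the 3 treated groups and no time for M0, and the study's methods read as the same 18 h for M0, in CSF-1 with nothing added. They name a solvent control for injected mice but none for the cultures, so T863 and its solvent cannot be told apart here. DGAT1 makes triacylglycerol, the storage fat of lipid droplets, and the study asked what this synthesis does for inflammatory macrophages, including their ability to engulf particles. The cells are a culture model of a macrophage from unmutated mice of a single inbred strain, and the inhibitor is a drug, so that none of the groups carries a genetic change in DGAT1. The descriptions of M0 + DGAT1i replicates 2 and 3 spell the compound with other last digits, and its name was read here from the source field, which gives T863 for all.

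Receptors for the Fc part of IgG let a macrophage bind whatever antibody has coated. Fcgr1, Fcgr3 and Fcgr4 encode activating receptors, which need the adaptor made by Fcer1g to reach the cell surface and to signal. The adaptor carries an ITAM, a short tyrosine motif that Src family kinases phosphorylate and to which the kinase Syk then binds, and Tyrobp encodes a related ITAM adaptor (DAP12) that serves other myeloid receptors. Fcgr2b encodes the inhibitory receptor, whose ITIM recruits the phosphatase SHIP and dampens the same pathway, and Fcgrt encodes FcRn, a receptor inside the cell that saves IgG from breakdown. IFNγ is known to raise Fc receptors of macrophages, and uptake of antibody-coated particles runs through this chain.

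Totals per library lay between 4996014 and 6621671 reads. Levels are given as CPM, the reads of a gene relative to its library's total after TMM scaling, and 1 CPM stood for 4.28 to 7.58 reads. Within a group, log2 CPM of the libraries correlated at 0.988 to 0.992 across genes. A gene is called changed where the quasi-likelihood test of edgeR gave an adjusted p under 0.05 (Benjamini-Hochberg, over the 11760 genes). Nothing in the labels says that libraries of a group came from separate mice or cultures, so the p-values measure the spread between these libraries, which may be technical. All 9 macrophage markers examined were detected in every group, and their summed level was 13345 to 14589 CPM in M0, 16284 to 18320 CPM in M0 + DGAT1i and 7574 to 8622 CPM in stimulated libraries. The largest part of these differences was Lyz2, the lysozyme gene, at a mean of 9641 CPM in M0, 13045 CPM in M0 + DGAT1i and 2956 CPM in IFNγ + LPS, while stimulation raised 3 of the 9, Adgre1, Mertk and Spi1, and lowered 6. Of the 12 neutrophil markers, Ly6g and Retnlg had 0 reads in every group, and the summed level was 59.4 to 69.6 CPM in resting and 198 to 222 CPM in stimulated libraries. Most of the latter was Csf3r, the receptor for G-CSF, at a mean of 188 CPM in IFNγ + LPS. Of the 6 neutrophil markers tested, 1 was called higher and 3 lower on stimulation without the inhibitor, with a median log2 fold change of -0.90. With the inhibitor present, 4 were called higher and 1 lower on stimulation. Mast cell and basophil markers summed to at most 7.38 CPM, with Fcer1a, Cpa3 and Mcpt8 at 0 reads throughout, and NK and T cell markers to at most 1.17 CPM. The 7 B cell markers summed to 30.2 to 31.8 CPM in M0, 19.7 to 24.0 in M0 + DGAT1i, 9.18 to 12.7 in IFNγ + LPS and 5.84 to 6.59 in IFNγ + LPS + DGAT1i. The 7 dendritic cell markers summed to at most 0.835 CPM in resting cells and in stimulated ones to 14.8 to 20.9 CPM without the inhibitor and 6.38 to 9.81 CPM with it. The part of these cells in the results on Fc receptors was not tested. In bulk libraries, fewer cells of a type and less RNA per cell cannot be told apart.

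Stimulation with IFNγ + LPS changed all 8 genes, 6 upward and 2 downward. Among all genes tested, the same comparison called 73.3%, with 37.1% higher and 36.2% lower, so that a call alone says little here and the sizes matter more. Fcgr4 rose most, 22.5-fold, and Fcgr1 rose 9.40-fold, which placed them 272nd and 459th from the top of the 11760 genes. Syk, Fcer1g, Fcgr3 and Fcgr2b rose between 1.78-fold and 2.57-fold. Tyrobp and Fcgrt fell. The median log2 fold change over the 8 genes was 0.98, against 0.01 over all genes tested. Scaling by library size alone moved the median of all genes to -0.46, and under it the 2 falling genes fell further and 5 of the other 6 were still called higher.

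**Figure D1:**
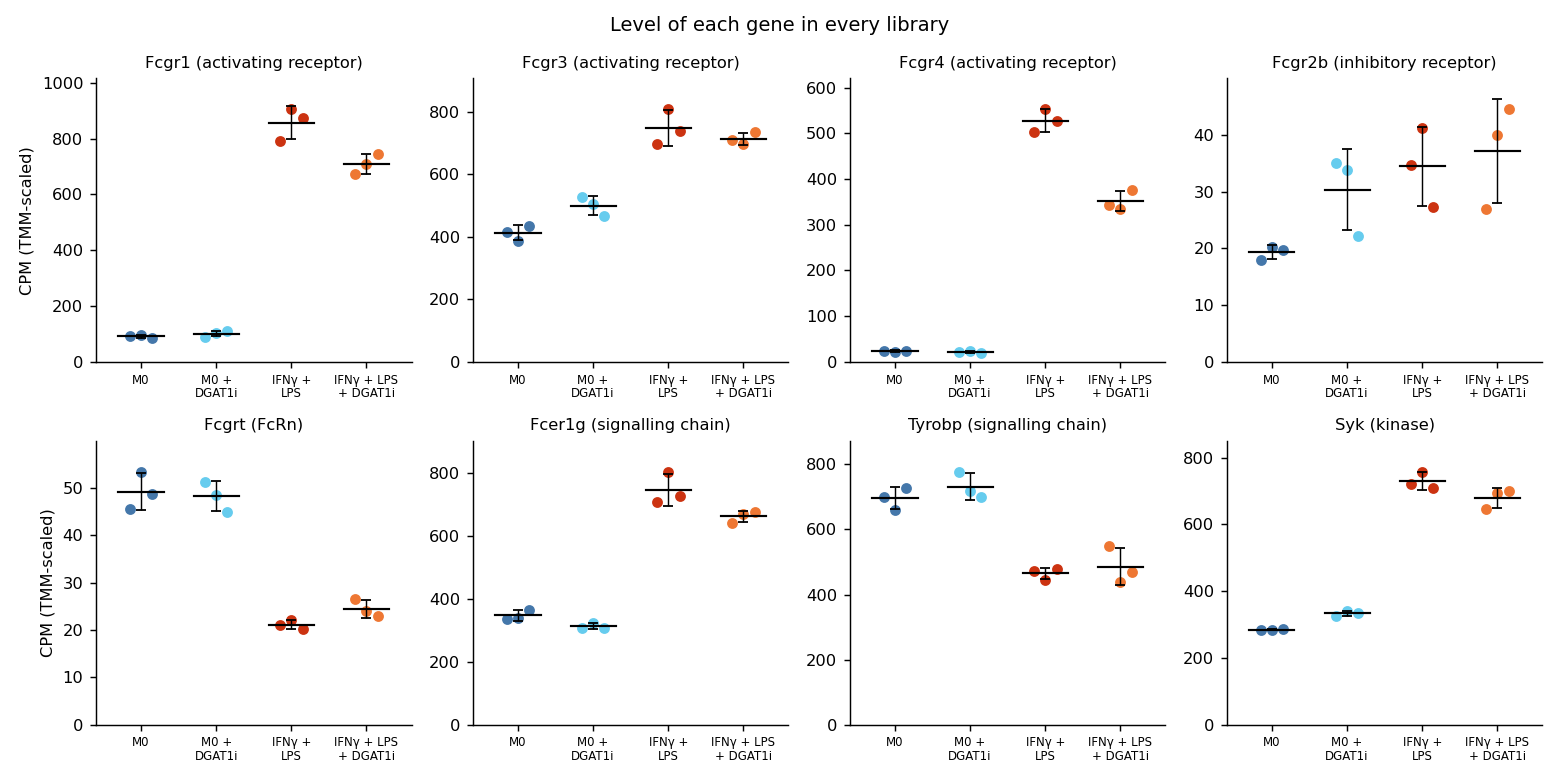
Each panel plots 1 gene, with CPM after TMM scaling on a linear axis from 0 and the 4 groups along the bottom. Points are the 3 libraries of a group, the horizontal line is their mean and the bar is ± 1 SD. Fcgr4 lay between 19.5 and 24.8 CPM in the 6 resting libraries and between 335 and 554 CPM in the 6 stimulated ones, while Tyrobp and Fcgrt were lower in every stimulated library than in any resting one.

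The high-affinity receptor Fcgr1 (FcγRI), on the minus strand of chr3:96282909-96293969 of GRCm38, was measured at 91.8, 96.0 and 85.5 CPM in the M0 libraries. The IFNγ + LPS libraries held 792, 907 and 873 CPM. With the inhibitor, Fcgr1 was at 90.9, 104 and 110.1 CPM in resting cells and at 674, 710.1 and 744 CPM in stimulated cells. Every stimulated library was far above every resting one, and the stimulated libraries with the inhibitor were all below those without it, whereas the resting groups overlapped. The log2 fold change on stimulation was 3.23 ± 0.06 (SE, adjusted p = 6.96e-40 by edgeR) without the inhibitor and 2.80 ± 0.06 with it.

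Fcgr4 encodes FcγRIV, an activating receptor for IgG2 that lies on the plus strand at chr1:171018920-171029761. It was near the bottom of the 8 genes at rest, with 24.0, 21.6 and 24.8 CPM in M0 and 21.7, 24.1 and 19.5 CPM in M0 + DGAT1i. In IFNγ + LPS it reached 504, 554 and 526 CPM, and in IFNγ + LPS + DGAT1i it reached 344, 335 and 376 CPM. The 3 stimulated libraries with the inhibitor thus lay well under the 3 without it, with a gap wider than the range within either group. Stimulation raised Fcgr4 by 4.49 ± 0.07 on the log2 scale without the inhibitor (adjusted p = 1.01e-49, edgeR) and by 4.02 ± 0.07 with it.

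Because Fcgr1 and Fcgr4 were the members that rose most, their promoters are shown, 250 bases before to 50 after the start site of the RefSeq table for GRCm38.p6. Capitals mark matches to the letters searched on both strands, which were TTCNNNGAA, the gamma-activated site, GAAANNGAA, the core of the interferon response element, and GAGGAA, the core bound by the myeloid factor PU.1. The first window is chr3:96293920-96294219 on the minus strand and the second is chr1:171018676-171018975 on the plus strand.
Fcgr1: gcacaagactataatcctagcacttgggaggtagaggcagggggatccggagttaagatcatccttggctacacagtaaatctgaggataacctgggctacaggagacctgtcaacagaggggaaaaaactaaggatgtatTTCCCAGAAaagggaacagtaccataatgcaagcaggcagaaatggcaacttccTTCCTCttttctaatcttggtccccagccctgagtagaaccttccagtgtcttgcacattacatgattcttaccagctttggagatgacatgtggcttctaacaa
Fcgr4: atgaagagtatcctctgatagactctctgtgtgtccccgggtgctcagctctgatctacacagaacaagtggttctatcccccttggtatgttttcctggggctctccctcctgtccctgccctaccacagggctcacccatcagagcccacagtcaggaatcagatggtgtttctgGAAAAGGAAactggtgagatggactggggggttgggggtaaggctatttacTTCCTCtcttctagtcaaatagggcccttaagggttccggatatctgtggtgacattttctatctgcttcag

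In the Fcgr1 window the gamma-activated site letters begin at -109 and PU.1 letters, read on the opposite strand, at -55 from the start. In the Fcgr4 window the interferon response letters begin at -73 and PU.1 letters, again on the opposite strand, at -22. Of the other members, Fcgr3 held the PU.1 letters at -15 or -6, depending on which of its listed starts is used, and Syk held them at -9 of its second listed start. The windows of Fcgr2b, Fcer1g and Fcgrt held none of these letters, and no match overlapped another. Tyrobp was not searched. Among the 32544 promoters of the table, 8.33% hold the gamma-activated site letters, 8.53% the interferon response letters and 28.1% the PU.1 letters. A match describes the sequence and is no evidence of binding.

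Fcgr3 (FcγRIII), the low-affinity activating receptor, was the most abundant of the IgG receptor genes at rest, per length as well as by reads. It lies at chr1:171051174-171064935 on the minus strand, 21412 bases from Fcgr4. The M0 libraries held 417, 387 and 434 CPM and the M0 + DGAT1i libraries 526, 505 and 468 CPM, so that every resting library with the inhibitor was above every one without it. The stimulated libraries held 697, 809.7 and 739 CPM without the inhibitor and 709.8, 698 and 735 CPM with it, and here the groups overlapped. Stimulation raised Fcgr3 1.81-fold from M0 (log2 0.86 ± 0.06, adjusted p = 1.72e-20, edgeR) and 1.43-fold from the higher level of M0 + DGAT1i (log2 0.51 ± 0.05). Under library size scaling the latter was 0.09 and no longer called (adjusted p = 0.103, edgeR).

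The inhibitory receptor Fcgr2b, at chr1:170958617-170976547 on the minus strand, was the scarcest of the 8 by CPM in M0. It held 18.02, 20.2 and 19.8 CPM in M0 and 34.7, 41.2 and 27.3 CPM in IFNγ + LPS, groups that did not overlap. The M0 + DGAT1i libraries held 35.1, 33.8 and 22.2 CPM, and the IFNγ + LPS + DGAT1i libraries 27.0, 40.1 and 44.6 CPM. Apart from M0, the libraries of each group were spread widely: the coefficient of variation was between 20.2% and 24.6%, where counting error alone would give 6.69% to 7.64%. For the other 7 genes it was at most 11.6% in any group. Stimulation raised Fcgr2b by 0.83 ± 0.25 on the log2 scale (adjusted p = 0.0135, edgeR), but by 0.36 under library size scaling, where the call was lost (adjusted p = 0.185). With the inhibitor present the difference was 0.29, with a 95% interval from -0.24 to 0.82 (adjusted p = 0.299, edgeR). It was called there without IFNγ + LPS + DGAT1i replicate 1, at 0.48 (adjusted p = 0.0377, edgeR), the upper end of a leave-one-out range from 0.10. Under library size scaling it had the opposite sign, at -0.13.

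Fcgr2b and Fcgr3 are near copies over part of their length, which limits what the counts can tell of them. Their longest transcripts share a stretch of 509 bases at 96.5% identity, or 37.8% of the Fcgr3 transcript and 14.4% of the Fcgr2b transcript. Fcgr2b reads came to between 3.70% and 6.69% of Fcgr3 reads in the same library, so that a small share of Fcgr3 reads set to Fcgr2b would change the latter. The labels and methods do not say how the authors counted reads that match several genes, and levels of Fcgr2b are uncertain for this reason. Fcgr2b also shares 155 exon bases with the antisense gene Gm38204, which had 0 reads in all 12 libraries.

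Fcgrt, which encodes FcRn and lies at chr7:45092990-45103851, fell on stimulation. The M0 libraries held 45.6, 53.5 and 48.7 CPM and the IFNγ + LPS libraries 21.1, 22.1 and 20.2 CPM. The level was 51.4, 48.6 and 45.0 CPM in M0 + DGAT1i and 26.6, 24.0 and 22.9 CPM in IFNγ + LPS + DGAT1i. No stimulated library reached any resting one, and the fall was 2.33-fold without the inhibitor (log2 -1.22 ± 0.10, adjusted p = 1.48e-16, edgeR) and 1.97-fold with it. B2m, the light chain with which FcRn pairs, went the other way and rose by 2.63 ± 0.06 on the log2 scale.

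The signalling chains moved apart. Fcer1g, the adaptor of the activating receptors, lies at chr1:171229572-171234365, 164636 bases from Fcgr3 in the same cluster. It was at 337, 339 and 366 CPM in M0 and at 708, 805 and 728 CPM in IFNγ + LPS, a rise of 2.15-fold (log2 1.11 ± 0.05, adjusted p = 2.89e-26, edgeR). With the inhibitor it was at 308, 325 and 308 CPM in resting cells and 642, 672 and 675 CPM in stimulated cells. In both states all 3 libraries with the inhibitor were below all 3 without it.

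Tyrobp, on chr7:30413760-30417585, was the member with the most reads at rest, at 701, 660.0 and 729 CPM in M0 and 778, 719 and 699 CPM in M0 + DGAT1i. It fell on stimulation to 472, 445 and 478 CPM, and to 549, 440.0 and 469 CPM with the inhibitor. Resting and stimulated libraries did not overlap, while groups with and without the inhibitor overlapped in both states. The fall was 1.498-fold without the inhibitor (log2 -0.58 ± 0.06, adjusted p = 3.65e-11, edgeR) and 1.51-fold with it.

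Syk, at chr13:52583173-52648792, had the tightest replicates of the 8 in M0, at 284, 282 and 287 CPM. It was at 326, 339 and 335 CPM in M0 + DGAT1i, above every M0 library. In IFNγ + LPS it held 722, 758 and 709 CPM, and in IFNγ + LPS + DGAT1i 646, 694 and 699.8 CPM, all below the lowest library without the inhibitor. Stimulation raised Syk 2.57-fold without the inhibitor (log2 1.36 ± 0.05, adjusted p = 3.07e-31, edgeR) and 2.04-fold with it (log2 1.03 ± 0.05).

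With the inhibitor on board, stimulation changed 7 of the 8 genes, 5 upward and 2 downward, where 70.6% of all genes tested were called (35.3% higher and 35.3% lower). The one not called was Fcgr2b. This comparison and the one without the inhibitor share no library.

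In stimulated cells, the inhibitor lowered 3 of the 8 genes and raised none, against a background of 29.8% of all genes called, 16.3% lower and 13.5% higher. The genes were Fcgr4, Fcgr1 and Fcer1g. Fcgr4 was lower by 33.4% (log2 -0.59 ± 0.05, 95% interval -0.70 to -0.48, adjusted p = 5.05e-13, edgeR) and was 780th from the bottom of the 11760 genes. Fcgr1 was lower by 17.3% (log2 -0.27 ± 0.06, adjusted p = 1.61e-04, edgeR), and Fcer1g by 11.3% (log2 -0.17 ± 0.05, adjusted p = 0.00879, edgeR). The call on Fcer1g was lost without IFNγ + LPS replicate 2, the highest library of its group, where the log2 fold change was -0.12 (adjusted p = 0.110, edgeR). Syk differed by -0.10, with an interval from -0.20 to -0.00228 and an adjusted p of 0.118 (edgeR), although its groups did not overlap. Fcgr3 differed by -0.07 (interval -0.18 to 0.04), Tyrobp by 0.06 (-0.06 to 0.19) and Fcgr2b by 0.10 (-0.45 to 0.65). Fcgrt was 0.21 higher with an interval from -0.02 to 0.45 (adjusted p = 0.179, edgeR), and its groups did not overlap either. How often groups of 3 libraries fail to overlap was not counted over all genes, so no weight is put on it. The median over the 8 genes was -0.09, against -0.01 over all genes tested. Among the 9 macrophage markers, 1 was called higher and 3 lower in this comparison. The mean of Adgre1 went from 2706 to 2114 CPM with the inhibitor and that of Cd68 from 631 to 878 CPM. Of the 6 neutrophil markers tested, 4 were called higher and 1 lower in the same comparison, with a median log2 fold change of 1.81. The mean of S100a8 was 9.13 CPM without the inhibitor and 34.5 CPM with it, that of S100a9 7.78 and 25.8 CPM, that of Ngp 1.35 and 9.18 CPM and that of Ltf 0.932 and 4.33 CPM, while Csf3r went from 188 to 140.4 CPM. The summed level of all 12 was 198 to 219 CPM without the inhibitor and 211 to 222 CPM with it. Hdc, the 1 mast cell and basophil marker tested, was called lower, with means of 6.02 CPM without the inhibitor and 3.12 CPM with it. The part of these markers, and of the lower dendritic and B cell sums given above, in the results was not tested.

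In resting cells the inhibitor also changed 3 of the 8 genes, with 2 higher and 1 lower. The background was 24.4% of all genes called, 11.0% higher and 13.4% lower. Library size scaling moved the split of all genes called from 1298 higher and 1571 lower to 885 and 2092, and left 2 of the 8 genes higher and 1 lower. Fcgr3 rose by 21.2% (log2 0.28 ± 0.05, adjusted p = 7.72e-05, edgeR) and Syk by 17.1% (log2 0.23 ± 0.05, adjusted p = 4.44e-04, edgeR). Fcer1g fell by 9.78% (log2 -0.15 ± 0.05, adjusted p = 0.0343, edgeR), a call that was lost without M0 replicate 3 (-0.11, adjusted p = 0.184), M0 + DGAT1i replicate 1 (-0.14, adjusted p = 0.114) or M0 + DGAT1i replicate 3 (-0.14, adjusted p = 0.108), and with no filter on low counts (adjusted p = 0.0746, edgeR). Fcgr1 differed by 0.16, with an interval from 0.02 to 0.29 and an adjusted p of 0.0896 (edgeR). Without M0 + DGAT1i replicate 1 it was called, at 0.23 (adjusted p = 0.0141, edgeR), the upper end of a leave-one-out range from 0.09. Fcgr4, the gene with the largest response to the inhibitor in stimulated cells among the called members, differed by -0.11 at rest (interval -0.30 to 0.08). Tyrobp differed by 0.07 (-0.05 to 0.19) and Fcgrt by -0.03 (-0.19 to 0.13). Of the 9 macrophage markers, 3 were called higher and 2 lower in this comparison, and of the 6 neutrophil markers tested 1 was called higher. Of the 3 B cell markers tested, 1 was called higher and 2 lower at rest, so the lower B cell sum given above did not hold for each marker. The part of these markers, and of that sum, in the results at rest was not tested.

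Fcgr2b had the largest estimate at rest, 0.64, which ranked 314th from the top of the 11760 genes, but with an interval from 0.10 to 1.19 it was not called (adjusted p = 0.0901, edgeR). Its M0 and M0 + DGAT1i libraries did not overlap. The estimate was called when only the 6 libraries compared were fitted (0.65, adjusted p = 0.00291, edgeR), by DESeq2 (0.63, adjusted p = 0.00696) and with no filter on low counts (adjusted p = 2.62e-05, edgeR). It was also called without M0 + DGAT1i replicate 3 (0.83, adjusted p = 0.00276) and without IFNγ + LPS + DGAT1i replicate 1 (0.64, adjusted p = 0.0171), both by edgeR. The call on Fcgr2b at rest thus depended on these settings.

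Whether the response to the inhibitor differed between stimulated and resting cells was tested as the difference of the responses. It was called for 4 of the 8 genes, all in the direction of a lower response in stimulated cells, against 18.5% of all genes called, 9.80% lower and 8.66% higher. The same number is also the difference between the rise on stimulation with and without the inhibitor. Fcgr4 differed by -0.48 ± 0.11 (adjusted p = 9.73e-04, edgeR) and Fcgr1 by -0.43 ± 0.09 (adjusted p = 2.82e-04, edgeR). For Fcgr3 the difference was -0.34 ± 0.08 (adjusted p = 7.36e-04, edgeR), made up of a rise at rest and an estimate close to 0 in stimulated cells. For Syk it was -0.33 ± 0.07 (adjusted p = 4.52e-04, edgeR), with a rise at rest and an estimate below 0 in stimulated cells. Fcer1g, which was lower with the inhibitor in both states, differed by -0.02 with an interval from -0.17 to 0.13, and Tyrobp by -0.01 with an interval from -0.18 to 0.16. Fcgrt differed by 0.24 (-0.04 to 0.53) and Fcgr2b by -0.54 (-1.32 to 0.23), the widest interval of the 8. With no filter on low counts the latter was called, at -0.58 (adjusted p = 0.0180, edgeR).

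**Figure D2:**
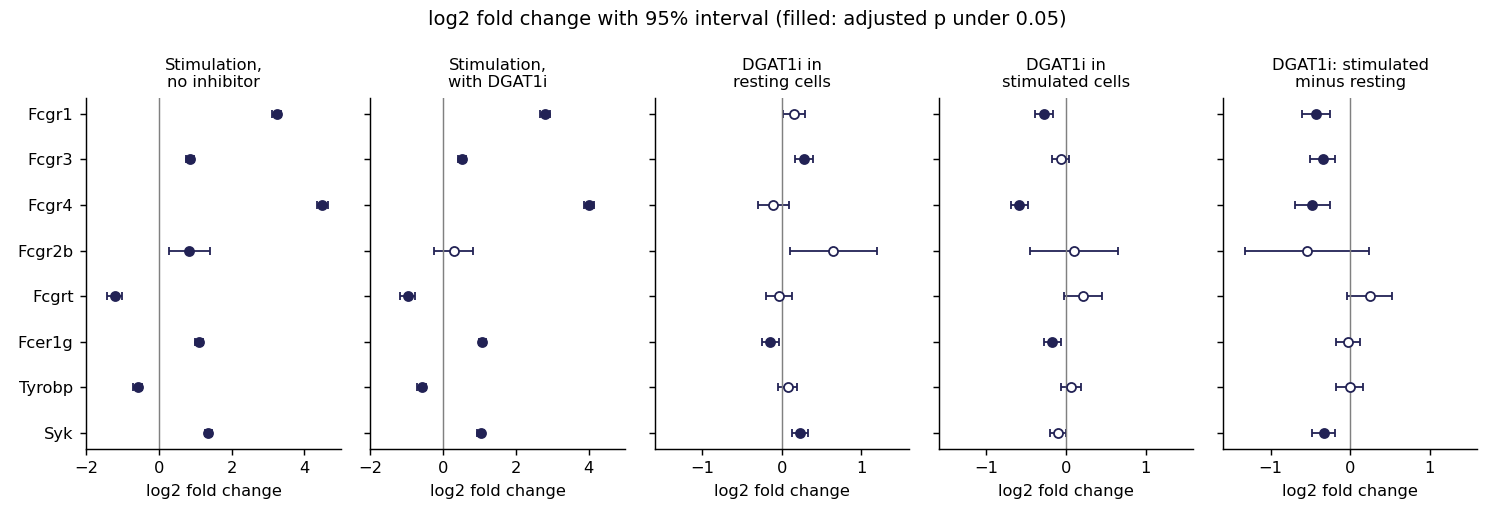
Each panel is 1 comparison, with the log2 fold change on the horizontal axis (from -2 to 5 in the first 2 panels and from -1.6 to 1.6 in the others) and the genes down the side. Points are edgeR estimates, bars are 95% intervals and filled points have an adjusted p under 0.05. The last panel, the difference of the inhibitor responses, has Fcgr1, Fcgr3, Fcgr4 and Syk filled and below 0, and Fcer1g and Tyrobp next to 0.

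The order of the 4 groups followed from these values. Fcgr1 and Fcgr4 were lowest in the resting groups, whose difference was not called for either gene, then IFNγ + LPS + DGAT1i, then IFNγ + LPS. Fcer1g was the only member for which the difference between every pair of neighbours in the order was called, from M0 + DGAT1i through M0 and IFNγ + LPS + DGAT1i to IFNγ + LPS, although the lowest and the highest step were each lost without some libraries, as given above. Fcgr3 and Syk rose from M0 to M0 + DGAT1i to the stimulated groups, and the difference between the stimulated groups was not called. Fcgrt and Tyrobp formed only a low stimulated and a high resting level. For Fcgr2b no difference between neighbours in the order was called, from M0 through M0 + DGAT1i and IFNγ + LPS to IFNγ + LPS + DGAT1i, while that between M0 and IFNγ + LPS was.

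Levels can be compared between genes only per length, and for this CPM was divided by the union of each gene's exons in kilobases (kb). On this scale Tyrobp led in M0 at 1044 ± 51.9 CPM per kb (SD, n = 3), ahead of Fcer1g at 398 ± 18.5 and Fcgr3 at 238 ± 13.7. Fcgr1 (35.2 ± 2.05), Syk (30.4 ± 0.263), Fcgrt (23.5 ± 1.90) and Fcgr4 (18.7 ± 1.33) lay about an order of magnitude lower, and Fcgr2b was lowest at 3.34 ± 0.203 CPM per kb. In IFNγ + LPS the order of the top genes changed, with Fcer1g at 855 ± 58.8 CPM per kb above Tyrobp at 697 ± 26.4. Fcgr3 at 431 ± 33.0 and Fcgr4 at 420.2 ± 19.8 CPM per kb were then within 1 SD of each other, and Fcgr1 was at 331 ± 22.8. Syk was at 77.9 ± 2.74 and Fcgrt at 10.1 ± 0.456 CPM per kb, and Fcgr2b, at 5.95 ± 1.199, stayed the lowest. With the length of the longest transcript in place of the exon union, Tyrobp still led in resting and Fcer1g in stimulated cells, and Syk passed Fcgr1 at rest. The near equality of Fcgr3 and Fcgr4 in IFNγ + LPS did not hold on that length, where Fcgr3 was at 556 and Fcgr4 at 420.2 CPM per kb.

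**Figure D3:**
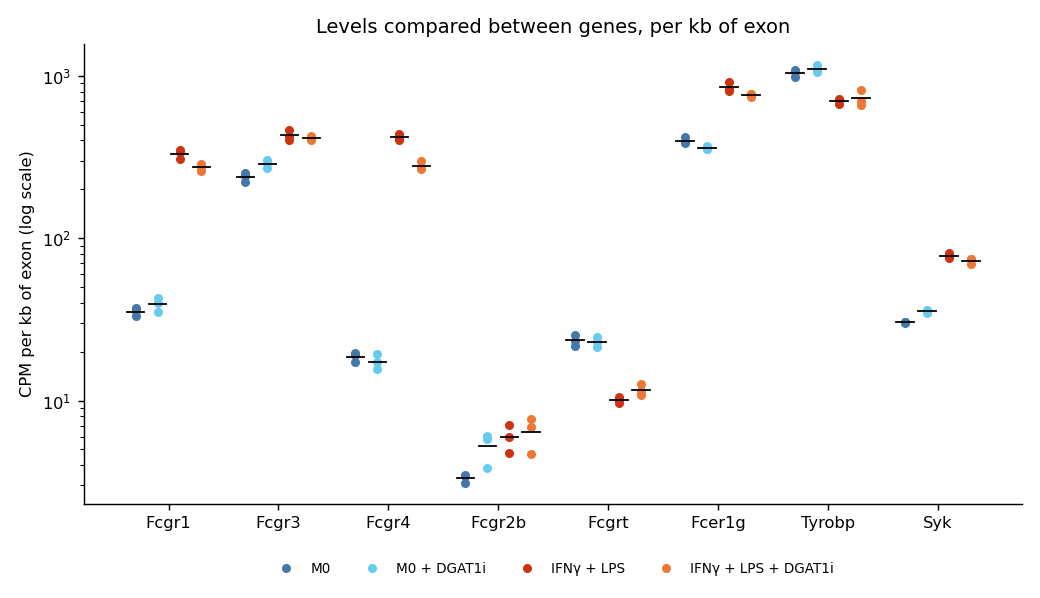
CPM per kb of exon on a log axis for each of the 8 genes, with 1 point for each library, a line at the mean of each group, and colours for the 4 groups. The group means of Fcer1g were above those of Tyrobp in both stimulated groups, Fcgr4 was close to Fcgr3 in IFNγ + LPS and below it in IFNγ + LPS + DGAT1i, and Fcgr2b had the lowest mean in all groups.

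The make-up of IgG receptor mRNA shifted with stimulation. Of the summed CPM per kb of Fcgr1, Fcgr2b, Fcgr3 and Fcgr4, Fcgr3 held 79.4% to 81.7% in the M0 libraries and 81.3% to 83.9% in M0 + DGAT1i. In IFNγ + LPS its share was 35.9% to 36.9%, with Fcgr4 at 34.9% to 36.0% and Fcgr1 at 27.4% to 28.4%. With the inhibitor the stimulated cells had an Fcgr3 share of 41.6% to 43.1% and an Fcgr4 share of 28.1% to 29.4%, both outside the range without it, while the Fcgr1 share, 27.5% to 28.9%, overlapped. The ratio of Fcgr4 to Fcgr3 per kb was 0.0785 ± 0.00130 in M0, 0.0602 ± 0.00507 in M0 + DGAT1i, 0.976 ± 0.0282 in IFNγ + LPS and 0.680 ± 0.0233 in IFNγ + LPS + DGAT1i (SD, n = 3). By the longest transcript, the Fcgr3 share in IFNγ + LPS was 42.2% and the ratio of Fcgr4 to Fcgr3 was 0.757 ± 0.0219.

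The balance of activating to inhibitory receptor rose as well. The 3 activating genes summed to 87.6 ± 7.75 times Fcgr2b per kb in M0 and 204 ± 40.3 times in IFNγ + LPS, and no library of the groups overlapped. With the inhibitor the ratio was 68.1 ± 15.2 at rest and 157 ± 39.8 in stimulated cells, and it overlapped the group without the inhibitor in both states. These ratios inherit the uncertainty of Fcgr2b. The ratio of activating receptors to their adaptor Fcer1g per kb went from 0.734 ± 0.0269 in M0 to 0.961 ± 0.0419 in M0 + DGAT1i, 1.27 ± 0.0410 in IFNγ + LPS + DGAT1i and 1.38 ± 0.0301 in IFNγ + LPS, 4 groups with no overlap. Fcer1g to Tyrobp was 0.381 ± 0.0131 in M0 and 1.23 ± 0.132 in IFNγ + LPS, and in IFNγ + LPS + DGAT1i it ranged from 0.893 to 1.16, so that Tyrobp was the higher of the pair in 1 library there. By the longest transcript the range was 1.02 to 1.33, with Fcer1g higher in all 3 libraries. With TMM scaling the sum of the 2 adaptors ranged from 1378 to 1588 CPM per kb over the 12 libraries. A sum, unlike a ratio, depends on the scaling. The TMM factors were 1.136 to 1.192 in resting and 0.846 to 0.869 in stimulated libraries, and the sum was not made under library size scaling. Sums, shares and ratios are given as descriptions with no test.

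**Figure D4:**
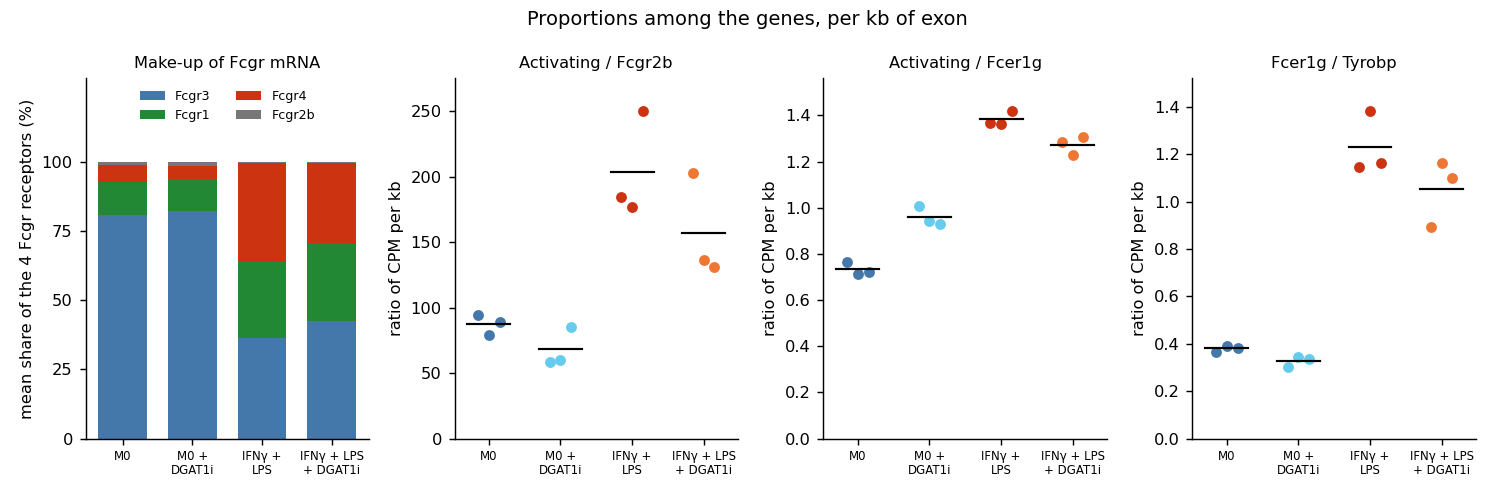
The left panel stacks the mean share (%) of each of 4 Fcgr genes in their summed CPM per kb, and the other panels plot a ratio of CPM per kb for each library (points) with the group mean (line), on axes from 0. Fcgr3 falls from a mean share of 80.6% in M0 to 36.3% in IFNγ + LPS, and the ratio of the 3 activating genes to Fcer1g separates all 4 groups.

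Genes whose log2 CPM followed a member most closely over the 12 libraries are named as a description. The libraries fall into resting and stimulated sets and share these states, so that high values of Pearson's r are common for any gene that stimulation moves. For Fcgr1 they were Ifi211, Aftph and B2m (r = 0.999 for each), and for Fcgr4 Serpina3g, Gm4841 and M6pr (0.999 for each). For Fcer1g they were Cggbp1 (0.997), Oas1a and Themis2 (0.996 each), and for Syk Larp1 (0.999), Rgl1 and Peli1 (0.998 each). Fcgr3 was followed by Pnpla2 (0.994), Fnip2 (0.991) and Adora2b (0.988), Fcgrt by Camk1 (0.993), Tacc1 and Pam (0.992 each), and Tyrobp by Ttc3 (0.985), Hs1bp3 (0.983) and Tgfbr1 (0.982). Fcgr2b had no gene as close, the nearest being Zfr2 (0.941), Pgpep1 (0.939) and Tnpo1 (0.895). In all, 10172 genes were compared, all with a mean log2 CPM of 2 or more.

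The genes around the Fc receptors were taken from 7 lists. Other Fc receptors, Fc receptor-like genes and partner subunits numbered 14. Of these only the Fc receptor-like Fcrl1 and Fcrls, and Trim21 and B2m, were tested. Stimulation raised the cytosolic antibody receptor Trim21 (2.49 ± 0.07) and B2m and lowered Fcrls (-3.09 ± 0.10) and Fcrl1, where 73.3% of all genes were called. In stimulated cells the inhibitor lowered 3 of the 4 (16.3% of all genes tested were lower there), among them Trim21 (-0.57 ± 0.06) and B2m (-0.19 ± 0.05), and at rest it raised B2m (0.19 ± 0.05) and lowered Fcrls (-0.48 ± 0.07). The number called at rest was thus 2 of 4, beside 24.4% of all genes, and it was 1 without M0 replicate 1 or without M0 + DGAT1i replicate 2. The rise of B2m at rest was 0.13 and not called under library size scaling (adjusted p = 0.0613, edgeR), which made Trim21 called lower there (-0.24, adjusted p = 0.0404, edgeR) and left none of the 4 higher and 2 lower.

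Of the Src family kinases that phosphorylate the ITAM, and the enzymes that set their activity, stimulation raised 9 of 10 tested and lowered none, with a median of 1.00, where it raised 37.1% and lowered 36.2% of all genes tested. Src rose by 3.12 ± 0.12, Fgr by 2.57 ± 0.35 and Lck by 4.57 ± 0.59, and Lyn, the kinase most tied to Fc receptors, by 1.08 ± 0.05. The inhibitor lowered 6 of these 10 genes in stimulated cells, with Lyn at -0.56 ± 0.05 and Csk, the kinase that restrains the family, at -0.52 ± 0.06, and raised 2, with Src at 0.73 ± 0.08, beside 16.3% of all genes lower and 13.5% higher. At rest it lowered 3 (4 under library size scaling) and raised none, beside 13.4% and 11.0% of all genes. Under library size scaling stimulation raised 7 of the 10 and lowered 1, and Csk was no longer called.

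Of 14 tested receptors that also signal through Fcer1g, Tyrobp or Syk, stimulation raised 8 and lowered 3, a share close to the 73.3% of all genes that it called (7 and 5 under library size scaling, where the median fell from 0.64 to 0.17), with Clec4e (Mincle) at 7.48 ± 0.28 and Clec4n (Dectin-2) at 5.15 ± 0.19. In stimulated cells the inhibitor raised 3 and lowered 6, and at rest it raised 4 and lowered 1 (3 and 2 under library size scaling), where it called 29.8% and 24.4% of all genes. Clec4n rose in both, by 1.09 ± 0.09 and by 2.38 ± 0.27, while Pilrb1 (-2.42 ± 0.22) and Sirpb1a (-1.996 ± 0.29) fell in stimulated cells. Clec7a (Dectin-1) fell in both, by 0.54 in stimulated and by 0.53 in resting cells, on the log2 scale.

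Downstream of Syk, stimulation raised 16 and lowered 7 of 30 tested genes, with a median of 0.33, close to the 73.3% of all genes called, though under library size scaling the numbers were 10 and 13 and the median -0.14. Malt1 (2.32 ± 0.07) and the adaptor Lcp2 (SLP-76, 1.47 ± 0.06) rose, also under library size scaling. In stimulated cells the inhibitor raised 6 and lowered 9, with Lcp2 at -0.72 ± 0.06, the adaptor Blnk at -0.68 ± 0.07 and the phospholipase Plcg2 at -0.64 ± 0.06. At rest it raised 4, with Pik3cb at 0.35 ± 0.07, and lowered 3, with Blnk at -0.34 ± 0.06. The background was 29.8% of all genes called in stimulated cells and 24.4% at rest, the latter close to the share here. Under library size scaling the numbers at rest were 3 higher and 6 lower.

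The actin and GTPase machinery of the phagocytic cup moved mostly downward with the inhibitor. In stimulated cells 15 of 20 genes were lower and 1 higher, with a median of -0.25 against -0.01 over all genes tested, and at rest 13 were lower and 1 higher (15 and 0 under library size scaling), with a median of -0.20 against 0.00371. Of all genes tested, 16.3% were called lower in stimulated cells and 13.4% at rest. Rac2, the haematopoietic Rac, was lower by 0.76 ± 0.05 and the motor Myo10 by 0.76 ± 0.06 on the log2 scale in stimulated cells, and Gsn, the actin-severing gelsolin, was the 1 that was higher (0.53 ± 0.06). At rest Dock2 fell by 0.40, Myo1e by 0.34 and Elmo1 by 0.31. Stimulation itself raised 11 and lowered 6 of the 20, where 73.3% of all genes were called, but raised 4 and lowered 13 under library size scaling.

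Of 13 tested phosphatases, adaptors and ubiquitin ligases that dampen ITAM signalling, stimulation raised 7 and lowered 5, which became 3 and 7 under library size scaling, beside 73.3% of all genes called. In stimulated cells the inhibitor lowered 6, among them the adaptor Sla (-1.91 ± 0.16) and the phosphatase Ptpn6 (SHP-1, -0.54 ± 0.05), and raised 2. At rest it lowered 4, with Dok2 at -0.67 ± 0.06, and raised 1 (4 and 0 under library size scaling). Of 13 other inhibitory receptors with ITIMs, all were called on stimulation, as 73.3% of all genes were, 7 upward and 6 downward (5 and 7 under library size scaling), with Cd300lf at 4.02 ± 0.11 and Ceacam1 at -2.14 ± 0.28. The inhibitor lowered 5 of them and raised 1 in stimulated cells, with Siglece at -2.28 ± 0.38, Pilra at -1.47 ± 0.12 and Lair1 at -1.33 ± 0.08, and at rest raised 5, with Cd33 at 0.82 ± 0.11, and lowered 3. For both lists the background of the inhibitor was 29.8% of all genes called in stimulated cells and 24.4% at rest.

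**Figure D5:**
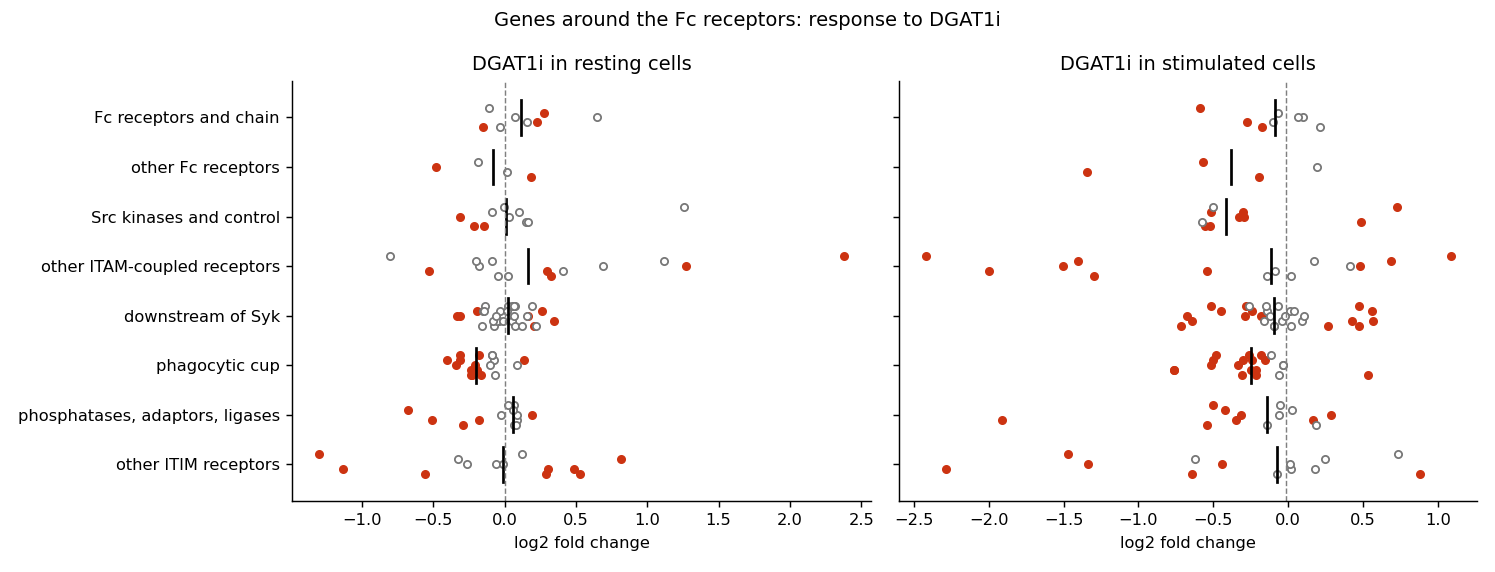
The log2 fold change with DGAT1i is on the horizontal axis, in resting cells on the left and in stimulated cells on the right, for each tested gene of the 8 Fc receptor and chain genes and of the 7 lists down the side. Red points have an adjusted p under 0.05, open points do not, black lines are list medians and the dashed line is the median of all genes tested. Of the 20 phagocytic cup genes, 13 are called lower on the left, where 13.4% of all genes are, and 15 on the right, where 16.3% are.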

How the data were processed

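RNA of 12 libraries, 3 in each of 4 groups named by the labels, was sequenced by the authors. They deposited raw read counts per gene, without normalization or pooling, made with the pipeline of their institute. The submitters' processing notes name GRCm38 and DESeq2, and the aligner, counting tool, strand setting and annotation release are not given in the sources used. The labels and the study's methods name different library kits, only one of which marks strand.

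Of the 47937 identifiers, 47310 matched GENCODE release M21 without their version, and symbols, positions and lengths came from it. In R 4.3.3, edgeR 4.0.16 was run on the counts: filterByExpr kept 11760 genes, TMM gave the scaling factors, and a model with a mean for each group, estimated from the 12 libraries together, was fitted by glmQLFit with robust shrinkage and tested with glmQLFTest, with Benjamini-Hochberg adjustment over all genes tested. SE and 95% intervals come from this fit. The common biological coefficient of variation was 0.0507. The script was tested on simulated counts with 200 changed genes. Totals of 4996014 to 6621671 reads limit precision for low genes, and intervals for counting error assume independent reads. Similar transcripts were found with BLAST 2.17.0 at an identity of at least 95%. No genome sequence was used; promoters came from the RefSeq table for GRCm38.p6, and proteins were not analysed here.

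The 8 genes and the lists were chosen with earlier results of these data known. Genes named from a list were chosen from the 3 called genes with the largest absolute log2 fold change for stimulation and for the inhibitor in either state, at a mean of at least 1 CPM, and the genes most like a member are the 3 with the highest Pearson's r. Some were also given in a comparison where they were not among its 3. Examples are Lyn on stimulation, Clec4n and Clec7a with the inhibitor in stimulated cells, and Trim21 at rest. These, Lyz2 and the other individual markers of cell types were named after their values were seen. Alternatives were DESeq2 size factors, library size alone, no filter or a mean CPM of 1, DESeq2 1.42.0, a fit of only the libraries compared, a replicate block, leaving out each library, and the length of the longest transcript.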

Additional observations from a re-analysis of the deposited data

Results flagged for a closer look

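The response to the inhibitor differed between stimulated and resting cells for 4 of the 8 genes, by the test of the difference itself (edgeR's quasi-likelihood test, Benjamini-Hochberg adjustment over 11760 genes). The same test called 18.5% of all genes, 9.80% lower and 8.66% higher. The log2 difference, stimulated minus resting, was -0.48 for Fcgr4, -0.43 for Fcgr1, -0.34 for Fcgr3 and -0.33 for Syk. Fcgr1 and Syk had estimates above 0 at rest, of 0.16 and 0.23, and below 0 in stimulated cells, of -0.27 and -0.10. Of these 4 values, those for Fcgr1 at rest and for Syk in stimulated cells were not called. All 4 differences were called under every alternative that was run. Groups of 3 libraries were not examined for outlying samples.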

How the results depend on the processing

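Of the 40 results on the 8 genes (8 genes in 5 comparisons), 27 kept their direction and their side of the threshold under every alternative run. Counts of members called, and of all genes called, stayed within 1.5 times the main count under all alternatives. Of 658 alternative counts for the 7 lists, 655 did so. The difference of the responses needs all groups, so no fit of only the libraries compared was made for it. Library size scaling moved the median of all genes by stimulation from 0.01 to -0.46, and the share of called genes that were higher from 50.6% to 25.05%.

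Among the 40 results on the 8 genes, signs turned only for those that were not called. Of the list genes named in the text, library size scaling turned Dock2 (0.14 to -0.34), Pik3cb (0.37 to -0.10) and Cd33 (0.30 to -0.17) on stimulation, and Csk (0.18 to -0.24) on stimulation with the inhibitor, all called without it. For Fcgr2b this was stimulation with the inhibitor under library size scaling (-0.13), and the inhibitor in stimulated cells over a leave-one-out range of -0.049 to 0.29. For Tyrobp it was the inhibitor in stimulated cells (leave-one-out, -0.035 to 0.13) and the difference of the responses (leave-one-out, -0.11 to 0.054; 0.00830 with DESeq2 size factors, 0.041 with library size only and 0.00628 with the DESeq2 Wald test). For Fcgrt it was the inhibitor at rest (leave-one-out, -0.083 to 0.033), and for Fcer1g the difference of the responses (leave-one-out, -0.065 to 0.030; 0.026 with library size only).

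The replicate numbers of the labels name no shared mouse or culture, and deviations of same-numbered libraries from their group means correlated at -0.0217 to 0.0687, so they were not taken as pairs. With the replicate block, all 40 results kept their direction and call, and 3568 genes were called for the inhibitor in stimulated cells against 3508 without it. At this depth, Fcgr2b, Fcgrt and resting Fcgr4 rested on 331 to 1070 reads per group, and their estimates are the least precise of the 8.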
